A study of Arabidopsis lyrata with 12 samples.

Results

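In young leaves of Arabidopsis lyrata, 1510 of 17702 domains of histone H3 monomethylated at lysine 27 (H3K27me1) had no base in common with a domain of 5-methylcytosine (5mC) and none with the span of a listed gene. They were chosen by the positions of the authors' H3K27me1 and 5mC domains and of the 24268 genes in the authors' mRNA table. That choice fixes their lack of 5mC and of listed genes, so neither is a finding. The other H3K27me1 domains comprised 13686 with 5mC between genes, 1062 without 5mC in genes and 1444 with both. All plants were of the MN47 strain, grown with 16 hours of light a day at 22.5 °C, with no treatment or genotype compared. The labels give 2 libraries for each of H3K27me1, H3K27me3, H3K4me3 and methylated DNA (MeDIP), 3 input controls and 1 mRNA library. Only 1 domain list per mark was deposited, so no value below has a replicate error and no difference was tested. Ranges in brackets are exact 95% binomial intervals, which cover counting error alone, and neighbouring domains are not independent of each other.

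In plants H3K27me1 is laid down by the ATXR5 and ATXR6 methyltransferases, as known from Arabidopsis thaliana, where it marks silent heterochromatin and transposons. Cytosine methylation covers the same territory and is copied by its own enzymes, among them MET1 and CMT3. H3K27me3, placed on the same lysine by Polycomb complexes, marks genes held silent, and H3K4me3 marks the start of transcribed genes.

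Several features of the lists bear on every value. H3K27me1 and H3K27me3 domains start and end in steps of 300 bp, and 5mC and H3K4me3 domains in steps of 150 bp. The score printed beside each domain is the authors', a whole number whose meaning is not given in the sources used here, and it is used only within the H3K27me1 list unless stated. Depth is unknown for every library, and a domain without 5mC is one where none was called. A gene that the mRNA table does not list counts as absent, so "between genes" means between listed genes.

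The 1510 domains fell into 2 settings that differed in nearly every measure. The 8 main scaffolds held 923 of them and the small scaffolds 587. On main scaffolds these 923 were 5.65% of all H3K27me1 domains (5.31 to 6.02%) and on small scaffolds the 587 were 42.5% (39.9 to 45.2%). The 622 small scaffolds made up 11.3 Mb, against 194.2 Mb for the main ones, both lengths being the highest coordinate in any file. The share on small scaffolds partly follows from the choice of domains. Of these 587, 253 lay on a scaffold without any 5mC domain and 418 on a scaffold without any listed gene, where nothing could be overlapped. Among the 1117 H3K27me1 domains on small scaffolds with at least 1 5mC domain, the share was 29.9% (27.2 to 32.7%). With a listed gene on the scaffold as well it was 20.9% of 604 domains (17.7 to 24.3%), still above the main scaffolds. Most measures below are given for both kinds of scaffold apart. Shares over all H3K27me1 domains, domains at the edge of the choice and most of the recomputed values at the end pool both kinds.

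Domains without 5mC on the main scaffolds were short. Their median width was 600 bp (quartiles 600 and 900 bp), and 173 of the 923 were a single 300-bp step of the grid. The 12970 with 5mC between genes had a median of 1200 bp (quartiles 900 and 2400 bp), and 26.8% of them were at least 2400 bp wide, against 15 of the 923 (1.63%) without 5mC. The median was lower without 5mC on 8 of 8 main scaffolds. A short domain meets another less readily, and the share without 5mC among domains between genes went down steadily with width. It was 19.9% at 300 bp (17.3 to 22.7%), 12.8% at 600 bp, 226 of 2511 domains at 900 bp, 5.23% at 1200 bp and 2.63% from 1500 to 2100 bp. At 2400 bp and more it was 0.430% (15 of 3490 domains).

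The score per base pair on the main scaffolds was slightly lower without 5mC. Its median was 0.203 (0.199 to 0.207), against 0.212 for domains with 5mC between genes and 0.188 for domains without 5mC in genes. It was lower without 5mC than with it on 7 of 8 main scaffolds, the exception being scaffold 2 with 0.2175 against 0.215. By width the difference was not the same throughout. At 300 bp the medians with and without 5mC were both 0.250, at 900 bp they were 0.197 and 0.189, and at 1200 bp 0.202 and 0.188. From 1500 to 2100 bp they were 0.208 and 0.188. In the widest class the 15 domains without 5mC had a median of 0.235 (0.198 to 1.17), against 0.229 with it. In domains without 5mC in genes the median was 0.247 at 300 bp, 0.197 at 600 bp and 0.181 at 900 bp. The lowest score of any H3K27me1 domain was 68, which at 300 bp gives 0.227 per base pair. The medians at 300 bp lay just above that floor, so they do not show that narrow domains are denser. Domains of 300 bp were 18.7% of those without 5mC between genes and 5.36% of those with it. The medians over all widths were not adjusted for this.

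**Figure D1:**
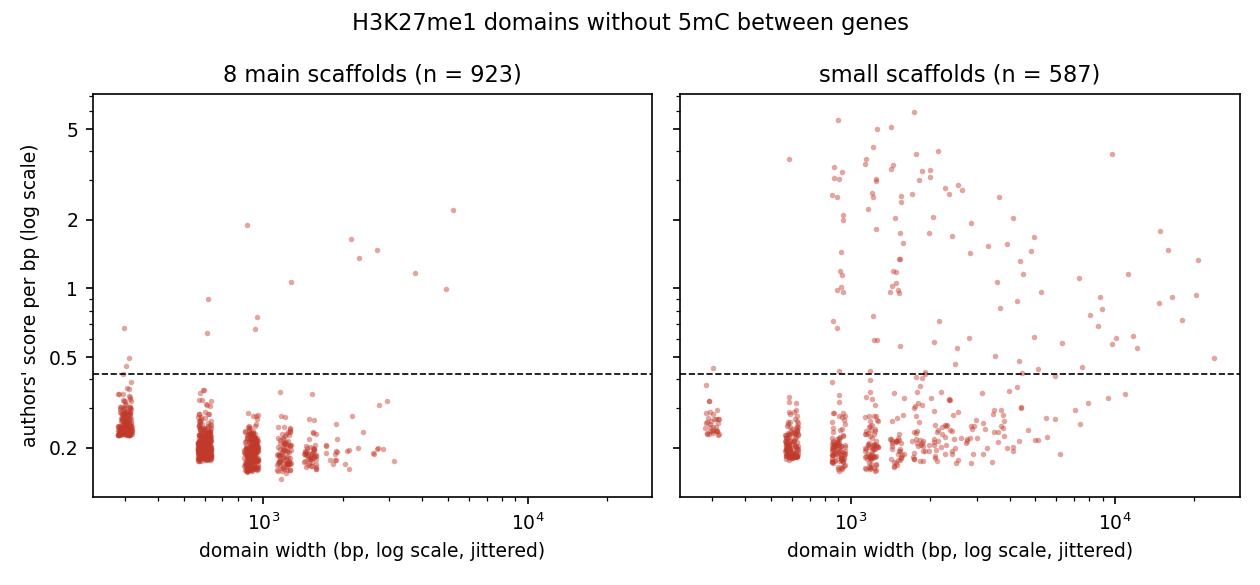
Width (x axis, bp, log scale, with small random offsets) against the authors' score per base pair (y axis, log scale) for each H3K27me1 domain without 5mC between genes. Left, the 923 on the main scaffolds; right, the 587 on small scaffolds. The dashed line is 2 times the median of all H3K27me1 domains, and 15 points lie above it on the left and 113 on the right.

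On small scaffolds the domains were wider, and more of them were dense, here meaning a high score per base pair. Their median width was 1200 bp (quartiles 600 and 1800 bp), and 36 of the 587 exceeded 5 kb, against 1 of the 923 on main scaffolds. The median score per base pair was 0.223, the same as the 0.223 of the 716 small-scaffold domains with 5mC between genes. The spread was wide, with 113 of 587 (19.3%, 16.1 to 22.7%) above 2 times the median of all H3K27me1 domains. Over the whole H3K27me1 list 2.80% passed that level, and among the 923 on main scaffolds 1.63% did. Small-scaffold domains with 5mC passed it about as often, in 153 of 716 cases (21.4%), but the comparison changed with scaffold length, as given below. At more than 10 times the median the counts were 36 of 587 without 5mC (6.13%) and 15 of 716 with it (2.09%). The domains above 2 times the median, 128 on all scaffolds, held 67.8% of the summed score of the 1510.

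The 113 dense domains lay on 53 of the 279 small scaffolds that held any of the 587. Of the 128 on all scaffolds, 112 lay on a scaffold without a listed gene and 44 on one without a 5mC domain. Where a small scaffold held both 5mC and a listed gene, 0.794% of its 126 domains were dense, and where it held 5mC but no listed gene 32.7% of 208 were. On scaffolds with neither, 21.0% of 210 were dense, and on those with a listed gene but no 5mC 0 of 43. Dense domains were also wide, with a median of 1800 bp. On the same 53 scaffolds the scores of 5mC and H3K27me3 were above their main-scaffold medians and that of H3K4me3 below. Their 383 5mC domains had a median of 1.34 in the authors' 5mC score per base pair, against 1.11 for 5mC on the main scaffolds. Their 42 H3K27me3 domains had a median of 1.09, against 0.751 on the main scaffolds. Their 5 H3K4me3 domains had a median of 0.758, against 1.24 on the main scaffolds. What sequence these scaffolds hold was not analysed here, so a high score there need not mean the same as on the main scaffolds. The part of the scaffold in the scores of its domains was not tested.

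Single domains show the range. The widest 3 were scaffold_15:219001-243900 (24.9 kb, 0.494 score per base pair), scaffold_35:40801-62700 (21.9 kb, 1.33) and scaffold_15:249601-269700 (20.1 kb, 0.933), in the coordinates of the authors' lists. Scaffold 15 carried 47 5mC domains and no listed gene, and its 2 wide domains lay 49.05 kb and 79.65 kb from the nearest of these. The highest score per base pair was 5.95 at scaffold_18:161701-163500, 28.1 times the median of all H3K27me1 domains. Next came scaffold_1082:2401-3300 with 5.49 and scaffold_1076:1-1500 with 5.09, on scaffolds with neither a 5mC domain nor a listed gene. The domains farthest from 5mC were scaffold_14:360001-361200 at 90.15 kb, scaffold_14:357901-359700 at 88.05 kb and scaffold_26:164101-166800 at 85.35 kb.

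The shares differed with scaffold length. On small scaffolds under 5 kb 162 of 187 H3K27me1 domains (86.6%) lacked 5mC and a listed gene, and on those over 100 kb 71 of 557 did (12.7%). On scaffolds that held a 5mC domain the share was 43.75% of 32 under 5 kb, 47.0% of 302 from 5 to 20 kb, 47.3% of 226 from 20 to 100 kb and 12.7% over 100 kb, so that it was nearly level up to 100 kb. The 71 on scaffolds over 100 kb were the densest of the 4 length classes, with a median of 0.604 and 62.0% above 2 times the overall median. Domains with 5mC between genes on scaffolds of that length had 0.227 and 25.7%, and at most 15 scaffolds gave these values. From 20 to 100 kb 13.4% without 5mC passed that level, against 23.8% with it. From 5 to 20 kb it was 6.61% against 7.91%, and under 5 kb 22.8% of 162 against 0%. That 0% is over fewer than 32 domains, since only 32 H3K27me1 domains lay on scaffolds under 5 kb with 5mC. A start at the first base of the scaffold was found for 66 of 587 small-scaffold domains without 5mC (11.2%) and for 31 of 716 with it (4.33%).

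On main scaffolds the domains without 5mC lay nearer to listed genes. The median distance to the nearest listed gene was 2730 bp (2348 to 3037 bp) over 923 domains, against 5480 bp (5314 to 5661 bp) with 5mC. It was lower on 8 of 8 main scaffolds, but on scaffold 2 the medians were close, at 5114 bp without 5mC and 5386.5 bp with it. The size of the difference also varied with place along the scaffolds, as given below. Within 1000 bp of a gene lay 24.9% of those without 5mC (22.2 to 27.8%) and 13.7% of those with it. The difference was present from 300 to 2100 bp of width. At 600 bp the medians were 2509 bp without 5mC and 5385 bp with it, and at 1200 bp they were 1857 and 5884 bp. In the widest class the 15 domains without 5mC had a median of 9624 bp, with an interval of 996 to 37797 bp that held the 4988 bp of those with it. On small scaffolds with a listed gene the median was 6445 bp over 169 domains without 5mC (4579 to 8129 bp). With 5mC it was 7067 bp over 411 (5869 to 8220 bp), and these intervals overlapped. Among the 3 domains farthest from a listed gene, scaffold_5:7446601-7447800 and scaffold_5:7311301-7313700 lay 600 bp from 5mC, in the same interval as the long stretch of scaffold 5 without any feature. The other, scaffold_1:31789801-31790100, abutted a 5mC domain and lay wholly under H3K27me3.

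**Figure D2:**
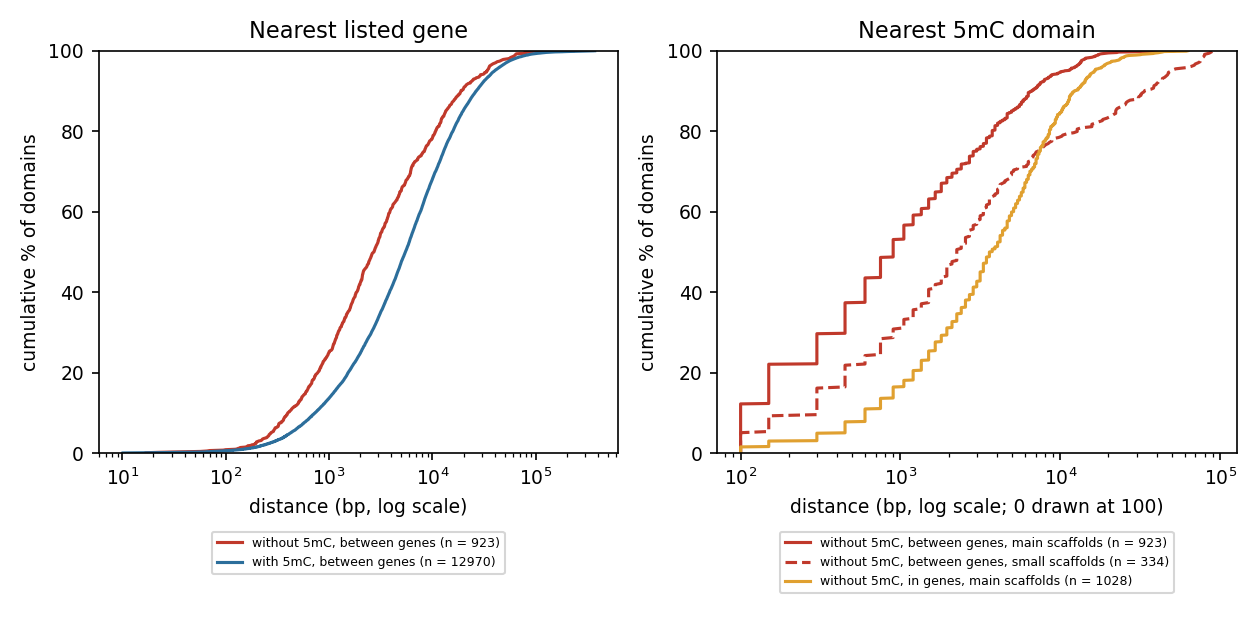
Cumulative percent of H3K27me1 domains (y axis) by distance (x axis, bp, log scale): left, to the nearest listed gene for main-scaffold domains between genes without and with 5mC, and right, to the nearest 5mC domain for domains without 5mC between genes on main (solid) and small (dashed) scaffolds and in genes on main scaffolds. The median distance to a listed gene is 2730 bp for the 923 domains without 5mC between genes and 5480 bp for those with 5mC.

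The nearest genes had mRNA levels slightly below those of all genes. Over the 778 distinct genes nearest to a main-scaffold domain without 5mC, the median of the authors' mRNA coverage value was 6.26 (5.56 to 6.95, quartiles 2.26 and 14.2). The 5000 genes nearest to domains with 5mC had a median of 6.54, and the main-scaffold genes as a whole 7.13 (6.98 to 7.30). Genes with an H3K27me1 domain without 5mC on their own span had a far lower median, 1.69 over 899 genes. Where that domain carried 5mC it was also low, 1.94 over 1022 genes. The lowest coverage in the table, exactly 1, was found for 9.77% of the 778 genes (7.77 to 12.1%), near the 8.23% of all listed genes. It was found for 500 of the 5000 genes nearest to domains with 5mC, 20.7% of the 899 and 27.6% of the 1022. No order appeared with distance, the medians of 6 distance classes lying between 5.83 and 7.11. On small scaffolds the median was 4.53 over 94 genes nearest to domains without 5mC (3.96 to 6.17). It was 4.06 over 129 genes nearest to those with it (3.20 to 5.62).

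Called 5mC was often close by. The median distance to the nearest 5mC domain on main scaffolds was 900 bp (750 to 1050 bp, quartiles 300 and 2925 bp), and 113 of the 923 domains (12.2%) directly abutted one. Domains without 5mC in genes lay farther from it, with a median of 3675 bp. A 5mC domain lay within 1000 bp on both sides in 177 cases, on 1 side in 313 and on neither in 433. On small scaffolds the median was 2250 bp over the 334 domains with 5mC on the scaffold, and 103 of these 334 (30.8%) had 5mC within 1000 bp. Of all 587, 484 had none within 1000 bp on either side, among them the 253 on scaffolds without any 5mC domain. At the edge of the choice, over all scaffolds, the 130 domains that abutted 5mC had a median width of 600 bp and a median score per base pair of 0.205. The 376 that shared exactly 150 bp with 5mC, and so were left out, had 600 bp and 0.211. H3K27me3 touched 16.9% of the former and 18.1% of the latter, closer to each other than the 2 classes as a whole. At the gene edge, 9 domains without 5mC ended under 100 bp from a gene and 8 left out reached up to 100 bp into one.

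Neighbouring H3K27me1 domains differed between the kinds of scaffold. On main scaffolds the nearest other H3K27me1 domain lay at a median of 1200 bp and carried 5mC in 71.8% of cases (663 of 923, 68.8 to 74.7%), below the 88.0% of all main-scaffold H3K27me1 domains that carried it. It was itself without 5mC between genes in 176 of 923 cases (19.1%, 16.6 to 21.8%), against 5.65% of all main-scaffold H3K27me1 domains. Most stood singly, 667 of the 923 having no other of the 923 next to them in the order of H3K27me1 domains, and the longest run was 6. More than 5 kb from both 5mC and any other H3K27me1 lay 90 domains (9.75%). On small scaffolds the nearest neighbour was itself without 5mC between genes in 379 of 507 cases (74.8%). Among all H3K27me1 domains there 42.5% were, and the longest run was 10. The 74.8% is partly fixed by the choice of domains. On small scaffolds, 210 of the domains without 5mC between genes lay on 117 scaffolds with neither a 5mC domain nor a listed gene. Any H3K27me1 neighbour there belongs to the same class by the rule. The share without these scaffolds was not taken, so the 74.8% does not show whether such domains cluster.

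H3K27me3, the Polycomb mark, was found less often with these domains on the main scaffolds. On main scaffolds 99 of 923 touched an H3K27me3 domain (10.7%, 8.80 to 12.9%), against 26.9% of those with 5mC between genes (26.2 to 27.7%) and 4.28% of those without 5mC in genes. Among all H3K27me1 domains 24.3% did. The share was lower than with 5mC on 8 of 8 main scaffolds, ranging from 4.46% on scaffold 8 to 18.9% on scaffold 2. It was lower from 300 to 2100 bp of width as well, with 9.09% against 21.5% at 600 bp and 10.1% against 27.1% at 1200 bp. At 300 bp it was 12.7% (8.14 to 18.6%) against 19.9% (17.0 to 23.0%), and these intervals overlapped. In the widest class 26.7% of 15 domains (7.79 to 55.1%) stood against 34.9%, which 15 domains cannot tell apart. On small scaffolds 100 of 587 touched H3K27me3 (17.0%), against 176 of 716 with 5mC (24.6%). Many of these scaffolds held no H3K27me3 domain, so nothing could be touched. Where the scaffold held one, it was 100 of 301 without 5mC and 176 of 598 with it. The lower share without 5mC was not seen there.

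**Figure D3:**
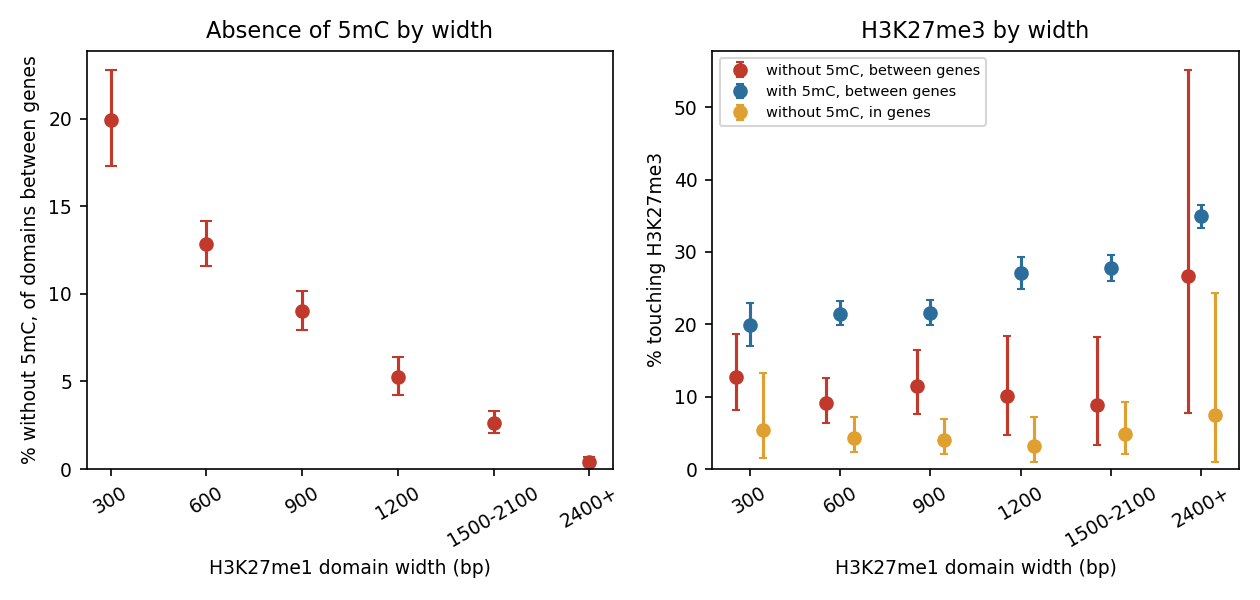
By width class (x axis, bp) on the main scaffolds: left, the percent without 5mC among H3K27me1 domains between genes, and right, the percent touching H3K27me3 for domains between genes without and with 5mC and for domains in genes without 5mC; bars are exact 95% binomial intervals. On the right the share between genes without 5mC is 9.09% against 21.5% with it at 600 bp, and these 2 intervals overlap at 300 bp and in the widest class.

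Where H3K27me3 was present on main scaffolds it mostly covered the whole domain, the median share of width being 100% over the 99. These 99 lay farther from listed genes, at a median of 6162 bp against 2431 bp for the other 824, in longer intervals between genes. Their median width was the same, 600 bp. The longest stretch of both marks was scaffold_15:185701-195900, where 9900 of 10200 bp lay under H3K27me3. H3K4me3, the mark of gene starts, touched 22 of the 923 (2.38%), against 2.69% with 5mC between genes and 18.9% of domains without 5mC in genes. Over all H3K27me1 domains the share was 4.02%.

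Gene numbers skipped by the mRNA table were common around these domains on the main scaffolds. The listed gene identifiers rise in steps of 10 along a scaffold, so a missing step between flanking listed genes shows a number that the table does not hold. Whether each is a gene, and of what kind, was not analysed here. Of the 920 main-scaffold domains with a listed gene on both sides, 682 (74.1%, 71.2 to 76.9%) lay in an interval with at least 1 skipped number, against 67.4% with 5mC and 67.9% of all H3K27me1 domains between genes. The share was higher on 8 of 8 main scaffolds. Longer intervals skipped more numbers, and those of the domains without 5mC were shorter. By interval length the gap was wider than this below 20 kb and narrower above. In intervals under 5 kb it was 62.0% of 163 domains (54.0 to 69.4%) without 5mC and 135 of 613 (22.0%, 18.8 to 25.5%) with it, at median lengths of 3634 and 3715 bp. From 10 to 20 kb it was 68.0% against 54.1%, from 20 to 50 kb 76.6% against 74.1%, and over 50 kb 95.4% against 91.0%. On small scaffolds the direction was the other way. There 20 of 39 domains without 5mC (51.3%, 34.8 to 67.6%) lay in such an interval. With 5mC it was 225 of 320 (70.3%, 65.0 to 75.3%). A gene missing from the table cannot be overlapped, so domains inside such genes enter the 1510 by its rule.

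**Figure D4:**
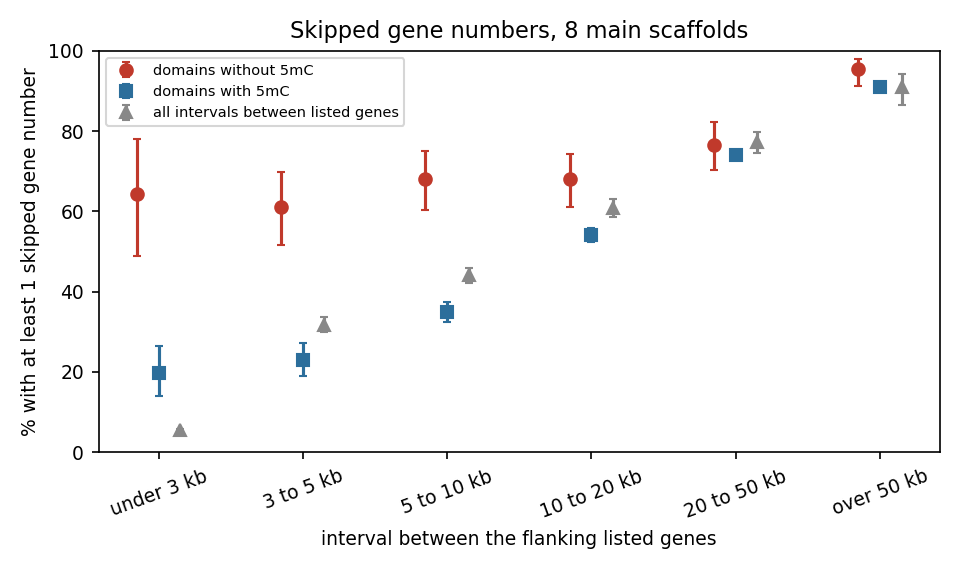
Percent of H3K27me1 domains on the main scaffolds whose interval between listed genes skips at least 1 gene number (y axis), by interval length (x axis, kb), without and with 5mC, beside the same percent over all intervals; bars are exact 95% binomial intervals. Under 3 kb the values are 64.4%, 19.6% and 5.50%, and over 50 kb 95.4%, 91.0% and 90.9%. The 5.50% is over mostly shorter intervals: under 5 kb all intervals have a median of 621 bp, against 3634 and 3715 bp for those of the domains. From 3 to 5 kb the values are 61.0%, 22.9% and 31.7%, and from 5 to 10 kb 68.0%, 34.9% and 44.1%, all intervals lying above those with 5mC.

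No number was skipped in the intervals of 238 domains. They had a median score per base pair of 0.210 and lay at a median of 600 bp from 5mC. H3K27me3 touched 6.30% of them, against 21.8% of domains with 5mC in intervals without a skipped number. With 3 or more skipped numbers the shares were 18.6% and 35.8%.

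Along the main scaffolds the domains without 5mC were spread more evenly than those with it. Each main scaffold has 1 long stretch without any listed feature, from 1.65 to 2.85 Mb, and distances were taken from it. Domains with 5mC thinned out from 161 per Mb within 1 Mb of that stretch to 26.8 per Mb beyond 10 Mb. Those without 5mC went from 7.63 to 3.92 per Mb, with 8.50 per Mb between 1 and 2 Mb. The share without 5mC among domains between genes thus rose from 4.52% (3.77 to 5.38%) to 12.8% (10.9 to 14.8%). It was lower within 1 Mb than at 5 Mb and more on 8 of 8 main scaffolds. The median distance from domains without 5mC to the nearest 5mC rose alongside, from 450 to 3600 bp, and that to a listed gene fell from 10874 to 1225 bp. The distance to a listed gene fell for domains with 5mC too, from 11413 to 2609 bp, so within 1 Mb both medians were close. In each class of place the median was lower without 5mC. It was 6503 against 8252.5 bp from 1 to 2 Mb, 3263 against 4969 bp from 2 to 5 Mb and 1405 against 3462.5 bp from 5 to 10 Mb. The contrast in gene distance over all main-scaffold domains was itself not adjusted for place.

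**Figure D5:**
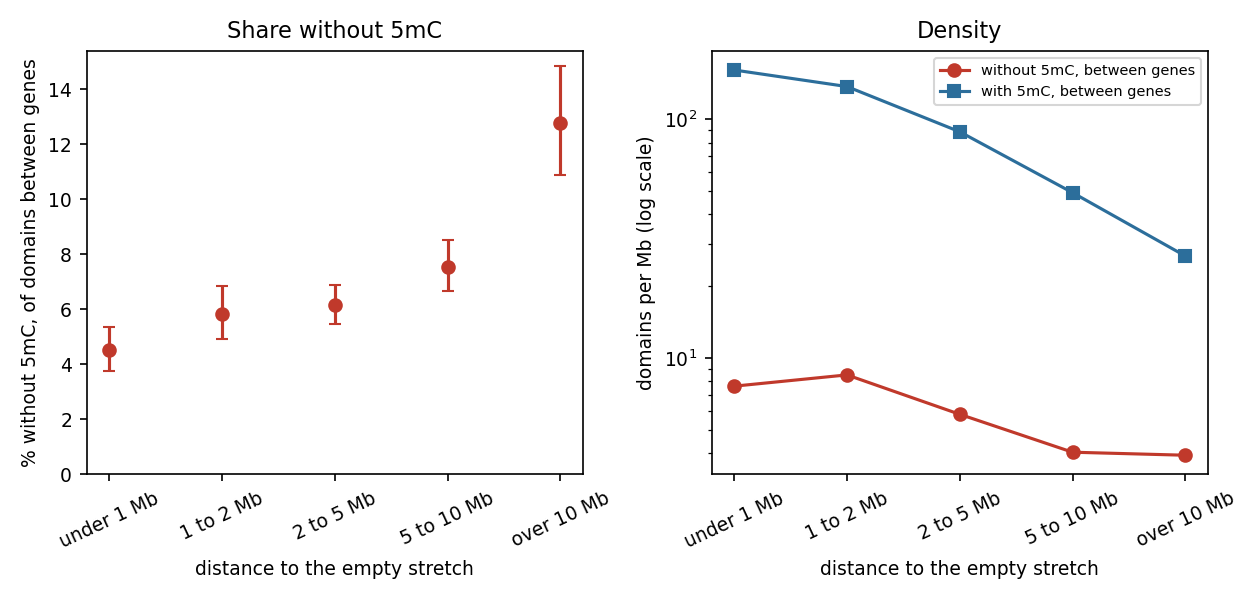
Place on the main scaffolds by distance to the long stretch without features (x axis, Mb classes): left, the percent without 5mC among H3K27me1 domains between genes with exact 95% binomial intervals, and right, domains per Mb without and with 5mC (log scale). The percent goes from 4.52% within 1 Mb to 12.8% beyond 10 Mb.

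Domain counts per main scaffold ran from 74 on scaffold 2 to 154 on scaffold 1. Per Mb outside the long stretches they ran from 4.31 on scaffold 2 to 5.77 on scaffold 5, with 5.09 on scaffold 1. As a percent of H3K27me1 domains between genes they ran from 6.18% to 7.16%.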

How the data were processed

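Domains of 4 marks and an mRNA table of young leaves were used as deposited. The fourth column of each domain list is a score the authors gave each domain. How it was defined, which genome build was used and whether libraries were pooled is not stated. The submitters' processing notes list the tools Bowtie and SICER, with no version. The deposited mRNA file gives 1 coverage signal per gene, listed from 1 upward, with its normalization not stated. Starts were converted to 1-based positions. A domain was taken when 0 bp lay in 5mC and 0 bp in a listed gene. Distances count bases between edges, and small scaffolds are those outside the 8 main ones. Shares have exact Clopper-Pearson and medians order-statistic 95% intervals, for counting error only. No test was possible with 1 list per mark, and depth is unknown. Named domains are the 3 highest by width, score per base pair, distance from a gene, distance from 5mC and H3K27me3 overlap. The members and lists were chosen with earlier results of these data known, and restricting scaffolds to those with 5mC and a listed gene was chosen after seeing the data. None of the 24268 gene identifiers matched the 34365 RefSeq genes, so no gene names or sequences are given. The overlap code was tested on simulated data. Python 3.11.15, pandas 2.3.3, NumPy 2.4.6, SciPy 1.17.1 and matplotlib 3.10.9 were used.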

Additional observations from a re-analysis of the deposited data

How the results depend on the processing

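Of 75 recomputed values, 38 stayed within the interval or 1.5 times the count and 37 moved. For domains at least 1000 bp from every 5mC domain, the number was 917, the median distance to a gene 1958 bp and to 5mC 3450 bp, the share with skipped gene numbers 77.51% and the share within 1 Mb of the long stretch 8.545%. With the top 50% of H3K27me1 domains by score, the number was 438, the width 1500 bp, the score per base pair 0.2417, the distance to 5mC 2175 bp, the H3K27me3 share 16.67% and the skipped share 78.52%. With the top 50% of 5mC domains, the number was 3072, the distances 3779 bp to a gene and 1650 bp to 5mC, the H3K27me3 share 16.76%, the skipped share 67.99% and the share near the stretch 17.65%. With domains of at least 900 bp, the values were 828 domains, 1200 bp width, 0.2039 score per base pair, 1500 bp to 5mC and 78.28% with skipped numbers. At least 1000 bp from every gene, the distances were 4866 bp to a gene and 900 bp to 5mC, and 16.31% lay near the stretch. The 8 main scaffolds alone gave 923 domains, 600 bp width, 0.2033 score per base pair, 900 bp to 5mC and 10.73% with H3K27me3. Scaffolds with 5mC and a listed gene, added after seeing the data, gave 600 bp, 0.2033 and 900 bp for the first 3 of these medians. Requiring H3K27me3 over 50% of the width gave 10.86%, requiring 3 skipped numbers 21.58%, a limit of 2 Mb 27.95%, and leaving out genes at coverage 1 a median coverage of 7.012. The causes were not tested.

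On main scaffolds the contrast with domains that carry 5mC kept its direction for H3K27me3 and gene distance under 3 of these settings. With the top 50% of 5mC domains the H3K27me3 shares were 16.5% and 27.8%, and the skipped shares in intervals under 5 kb 39.8% and 24.0%. No paired analysis was possible because each mark has 1 deposited list whose columns carry no replicate, and for the same reason leaving out a replicate was not run.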
